A study of Homo with 2 samples.

Results

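The 4 genes of the ERBB receptor family, EGFR, ERBB2, ERBB3 and ERBB4, were followed in human blastoids, which are embryo-like aggregates grown from pluripotent stem cells. The members were chosen by gene symbol, and all 4 were present among the 25556 genes that both count tables share. The blastoids were made from the human embryonic stem cell line KhES1 and form 1 group of 2 libraries. Per the labels, the cells were aggregated in microwells for 24 h with the ROCK inhibitor Y27632 at 10 µM and then kept in a hydrogel for 4 days, with 10% fetal bovine serum and the same inhibitor. Both libraries therefore share the line, the medium and the inhibitor, and the comparisons possible are between kinds of cells within the libraries. Undifferentiated KhES1 cells were not analysed here.

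ERBB receptors are tyrosine kinases of the cell surface that signal as pairs. EGFR and ERBB4 bind ligands and have active kinases, ERBB2 has no known ligand of its own and is a favoured partner of the others, and ERBB3 binds neuregulins but has a weak kinase. EGF, TGFA and AREG are ligands of EGFR, HBEGF, BTC and EREG bind EGFR and ERBB4, NRG1 and NRG2 bind ERBB3 and ERBB4, and NRG3 and NRG4 bind ERBB4. The active pairs feed the ERK and PI3K pathways. EGFR signalling is known for its part in trophoblast growth and differentiation, and ERBB2 with ERBB3 for the response of human pluripotent stem cells to neuregulin.

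In the RefSeq annotation of GRCh38.p14, EGFR lies on chromosome 7 from 55019017 to 55211628 and ERBB2 on chromosome 17 from 39688094 to 39728658. ERBB3 lies on chromosome 12 from 56080108 to 56103505 and ERBB4 on chromosome 2 from 211375717 to 212538802. The genes span 192.6, 40.6, 23.4 and 1163.1 kb in that order. ERBB2 overlaps MIEN1, which had 958 and 1162 UMIs (unique molecular identifiers, each marking 1 captured RNA molecule) in libraries 1 and 2, and EGFR overlaps the antisense gene EGFR-AS1, which had 23 and 12. The sources used here do not give whether the counting used the strand or intronic reads, so reads from the overlaps cannot be told apart. Levels below are compared for each receptor between cells, not between receptors, because the capture of RNA 3′ ends differs from gene to gene.

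Barcodes needed 1000 detected genes or more and no more than 20% of UMIs from mitochondrial genes, which left 937 of 1988 in library 1 and 1519 of 2601 in library 2, with medians of 35059 and 25116 UMIs. The libraries shared 0 of the kept barcodes. Clustering without the receptors and their pathway genes gave 6 clusters. Clusters 1, 3 and 5 (680 and 926 cells) scored as trophectoderm/amnion-like: all 14 markers of amnion and of trophectoderm, the layer that gives rise to the placenta, reached 10 CPM (UMIs of a gene per 1000000 UMIs of the cells) in both libraries. Cluster 3 held cycling cells, with the proliferation gene MKI67 at 206 and 199 CPM. Cluster 5 was led by HOPX, S100P and PGF. Its 10 leading genes held CYP19A1 of the syncytiotrophoblast list and APOA2 of the hypoblast list and none of the trophectoderm/amnion list, and at a finer resolution its closest counterpart scored as syncytiotrophoblast-like, so its place in the class is uncertain. Class results are therefore also given without cluster 5 where that changes them. Cluster 6 (45 and 76 cells) carried 9 of 10 markers of the pluripotent epiblast at 10 CPM or more, among them POU5F1 at 519 and 690 CPM, and also 7 of 9 markers of primitive streak and mesoderm. TBXT and MIXL1 of the streak list were among its leading genes and none of the epiblast list was, so it is called epiblast/streak-like here. The labels give embryonic stem cells as the cell type, whereas POU5F1 had 37.6 and 45.2 CPM in the trophectoderm/amnion-like cells, which were the majority. Clusters 2 and 4 (212 and 517 cells) stayed unnamed because of their low depth over both libraries, although 14 of 14 trophectoderm/amnion markers reached 10 CPM in each. In cluster 2 the cells of library 2 were the shallow ones, with a median of 3871 UMIs against 23890 in library 1. Clusters and levels come from separate random parts of the UMIs of each cell.

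All 4 receptors were detected in both libraries. Over all kept cells, EGFR had 64.1 and 58.1 CPM in libraries 1 and 2, a mean of 61.1 ± 4.24 (SD, n = 2) on 2401 and 2553 UMIs. ERBB2 had 24.9 and 23.2 CPM, a mean of 24.0 ± 1.25 (SD, n = 2) on 934 and 1018 UMIs. ERBB3 had 76.9 and 64.9 CPM, a mean of 70.9 ± 8.47 (SD, n = 2) on 2880 and 2852 UMIs. The exact 95% Poisson intervals of the libraries did not overlap for EGFR (61.5 to 66.7 and 55.9 to 60.4) or for ERBB3 (74.1 to 79.7 and 62.5 to 67.3). ERBB4 had 72.1 and 67.8 CPM, a mean of 69.9 ± 3.1 (SD, n = 2) on 2703 and 2978 UMIs. These intervals cover counting error only. Barcodes with fewer than 1000 genes carried the receptors too. In them EGFR had 32.1 and 50.7 CPM on 19 and 35 UMIs, and ERBB2 had 23.7 and 20.3 CPM on 14 in each library. ERBB3 had 42.2 and 55.1 CPM there, and ERBB4 had 15.2 CPM in library 1 and 117 in library 2 on 9 and 81 UMIs.

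EGFR, ERBB3 and ERBB4 were higher in the trophectoderm/amnion-like class and ERBB2 in the epiblast/streak-like class. EGFR differed most. It had 70.7 CPM in library 1 and 65.9 in library 2 in the trophectoderm/amnion-like class, against 10.3 and 10.0 in the epiblast/streak-like class, where it rested on 16 and 23 UMIs. The ranges of the classes did not overlap, and the log2 fold change was 2.75 (SE 0.18, adjusted p = 3.86e-10 by edgeR's quasi-likelihood test with Benjamini-Hochberg adjustment over all genes tested). All 4 receptors passed that test, in a contrast where 50.4% of the 13669 genes tested were called (24.1% upwards and 26.3% downwards in the trophectoderm/amnion-like class), so being called is no mark of the family. Over all genes tested the median was -0.018 on the log2 scale.

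ERBB2, the receptor without a ligand of its own, showed the opposite direction. It had 60.6 and 55.2 CPM in the epiblast/streak-like class, on 94 and 127 UMIs, and 21.5 and 18.9 CPM in the trophectoderm/amnion-like class, with no overlap. Its log2 fold change was -1.43 (SE 0.16, adjusted p = 8.55e-07, edgeR). GRB7, an adaptor gene that neighbours ERBB2 on chromosome 17, had 10.3 and 17.8 CPM against 12.2 and 12.3, a log2 fold change of -0.21 that did not pass the test (SE 0.27, adjusted p = 0.537, edgeR).

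ERBB3, the neuregulin receptor with the weak kinase, differed least. It had 78.4 and 69.6 CPM in the trophectoderm/amnion-like class and 49.6 and 43.5 in the epiblast/streak-like class. The log2 fold change was 0.47 (SE 0.13, adjusted p = 0.00459, edgeR), and 0.70 with cluster 5 left out of the class. Without cluster 5 the log2 fold changes of EGFR, ERBB2 and ERBB4 were 2.77, -1.43 and 1.75, and all 4 receptors stayed called.

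ERBB4, a receptor for neuregulins with an active kinase, had 78.3 and 81.0 CPM in the trophectoderm/amnion-like class. In the epiblast/streak-like class it had 41.9 CPM in library 1 and 10.0 in library 2, on 65 and 23 UMIs, so its level there depended on the library. The log2 fold change was 1.74 (SE 0.34, adjusted p = 3.21e-04, edgeR). It was 0.60 in library 1 alone and 3.11 in library 2 alone, and DESeq2's Wald test did not call it (log2 fold change 1.52, adjusted p = 0.0589).

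Other features moved with the same contrast. The nuclear RNA MALAT1 had 17429 and 15338 CPM in the trophectoderm/amnion-like class against 5440 and 5323 (log2 fold change 1.62, adjusted p = 2.96e-05, edgeR). NEAT1, another nuclear RNA, had 711 and 642 CPM against 315 and 362. Of 8 proliferation genes, 6 were called by the same test, all with less RNA in the trophectoderm/amnion-like class. MKI67 and CDK1 were not called. Of all genes tested, 26.3% were called lower in that class. Without cluster 5 all 8 proliferation genes were called lower, MKI67 and CDK1 included, and 3736 of the 13669 genes tested were. Their median log2 fold change was then -0.96, in place of -0.70. At the finer resolution of 1.0 all 8 were called lower as well, with a median of -1.34. Markers of mesenchyme, a list of which 7 of 10 reached 10 CPM in the trophectoderm/amnion-like class, summed to 1862 and 1867 CPM there and to 332 and 287 CPM in the epiblast/streak-like class. The part of these in the receptors' differences was not tested. No label ties the libraries to separate cultures. The fit takes out the mean difference between the libraries and shares information on spread between genes. Its p-values therefore measure only how differences between clusters varied between these libraries, which may be technical. For ERBB4 the SE was small beside the gap between the folds of the single libraries.

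**Figure D1:**
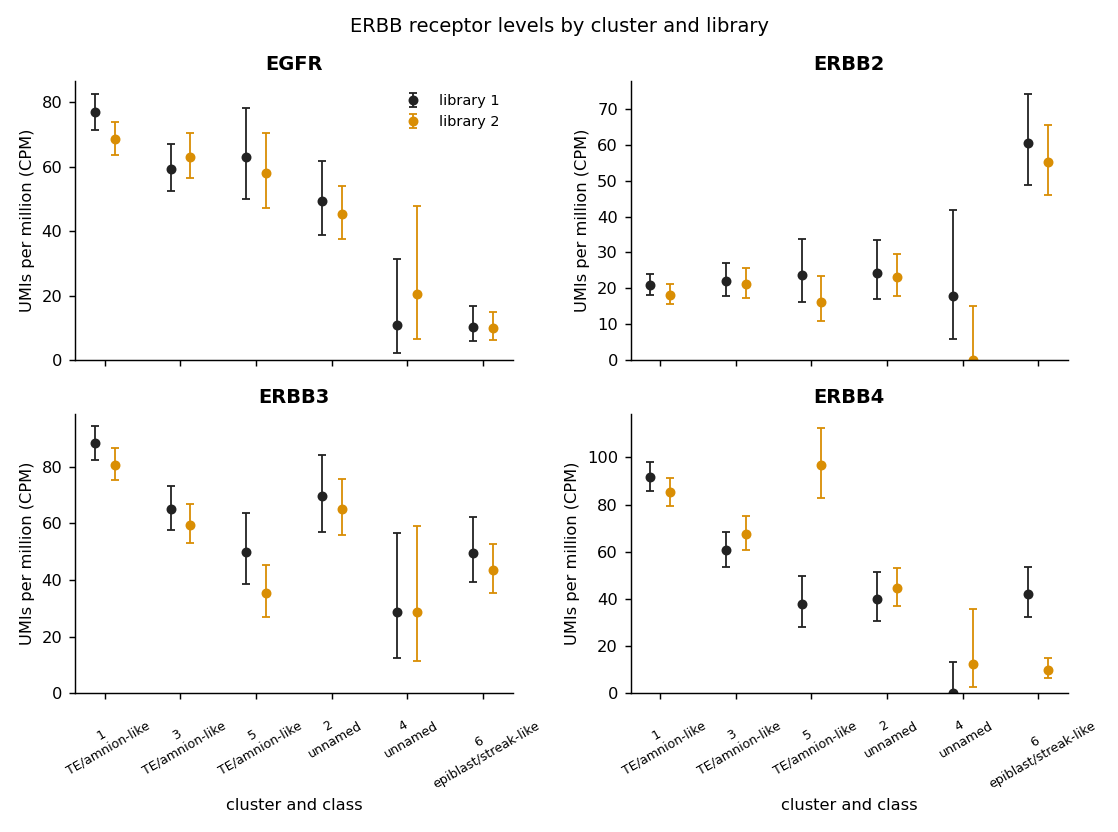
Level of each receptor (UMIs per 1000000) in the 6 clusters (TE, trophectoderm), 1 point per library with its exact 95% Poisson interval. EGFR is lowest in cluster 6 (10.3 and 10.0 CPM), where ERBB2 is highest (60.6 and 55.2 CPM), and the libraries part for ERBB4 in clusters 5 and 6.

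Across the 6 clusters, EGFR fell from 72.8 ± 5.85 CPM in cluster 1 (SD, n = 2, as for the other means of this paragraph) to 10.2 ± 0.23 in cluster 6. Clusters 3 and 5 followed cluster 1 at 61.3 ± 2.62 and 60.5 ± 3.59 CPM and overlapped each other, then cluster 2 with 47.3 ± 2.82 and the shallow cluster 4 with 15.6 ± 6.85 on 3 and 5 UMIs, whose counting intervals overlapped those of cluster 6. Tested against the mean of the other clusters in 1 fit, EGFR was higher in cluster 1 (log2 fold change 1.22, adjusted p = 1.14e-07, edgeR), where 47.3% of all genes were called. It was also higher in cluster 3 (0.89, with 31.6% of genes called) and cluster 5 (0.97, with 22.9%), and lower in cluster 4 (-1.27, with 29.5%) and cluster 6 (-2.27, with 45.6%). The call in cluster 4 was lost under 3 of the alternative settings.

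ERBB2 stood at 57.9 ± 3.83 CPM in cluster 6 (SD, n = 2) and between 19.6 and 23.7 CPM on average in clusters 1, 2, 3 and 5. In cluster 4 it had 5 UMIs in library 1 and 0 in library 2. Cluster 6 was the only cluster of the 6 in which ERBB2 passed the edgeR test, with a log2 fold change of 1.57 (SE 0.18, adjusted p = 1.24e-06). In clusters 1, 3 and 5 the log2 fold changes were -0.22, -0.08 and -0.13, and in library 2 alone, where cluster 4 has no ERBB2 UMI, they were 1.43, 1.65 and 1.28.

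ERBB3 was highest in cluster 1, at 84.5 ± 5.34 CPM (SD, n = 2), and was called higher there (log2 fold change 0.81, adjusted p = 2.82e-06, edgeR). Next came cluster 2 at 67.4 ± 3.16 CPM, the only receptor called in that cluster (0.42, adjusted p = 0.0371, edgeR, with 11.3% of all genes called), a call that was lost under 6 alternative settings. Cluster 3 had 62.3 ± 3.92 CPM, so close to cluster 2 that the gap is within their spread. Clusters 6 and 5, at 46.6 ± 4.37 and 42.7 ± 10.3, overlapped, and neither was called. In cluster 4, at 28.7 CPM on 8 and 7 UMIs, ERBB3 was lower (-0.85, adjusted p = 0.0460, edgeR), and this call was lost under 3 settings.

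ERBB4 was highest in cluster 1, at 88.5 ± 4.76 CPM (SD, n = 2), and 64.0 ± 4.89 in the cycling cluster 3. In cluster 5 it had 37.7 CPM in library 1 and 96.8 in library 2 on 49 and 167 UMIs, and these levels spanned those of clusters 1 and 3. Clusters 1, 3 and 5 were called higher, with log2 fold changes of 1.52, 0.92 and 1.18 (adjusted p = 2.32e-04, 0.0409 and 0.0287, edgeR). The calls in clusters 3 and 5 were lost under DESeq2's Wald test, and that in cluster 5 also with marked doublets removed. In cluster 6 the log2 fold change of -0.88 was not called (SE 0.58, adjusted p = 0.232, edgeR).

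The make-up of the family also differed between the classes. Of the receptor UMIs in the epiblast/streak-like class, ERBB2 gave 37.3% in library 1 (94 of 252, exact 95% Clopper-Pearson interval 31.3 to 43.6) and 46.5% in library 2 (127 of 273, 40.5 to 52.6). In the trophectoderm/amnion-like class ERBB2 gave 8.64% of 3830 and 8.03% of 3935. EGFR went the other way, from 28.4% and 28.0% in the trophectoderm/amnion-like class to 6.35% and 8.42%. The share of ERBB3 was 31.5% and 29.6% against 30.6% and 36.6%. ERBB4 gave 31.5% and 34.4% in the trophectoderm/amnion-like class. In the epiblast/streak-like class it gave 25.8% in library 1 and 8.42% in library 2, and since the shares sum to 100%, that gap between libraries bears on the ERBB2 share too. These are shares of captured UMIs and say nothing of which receptor has more RNA or protein.

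**Figure D2:**
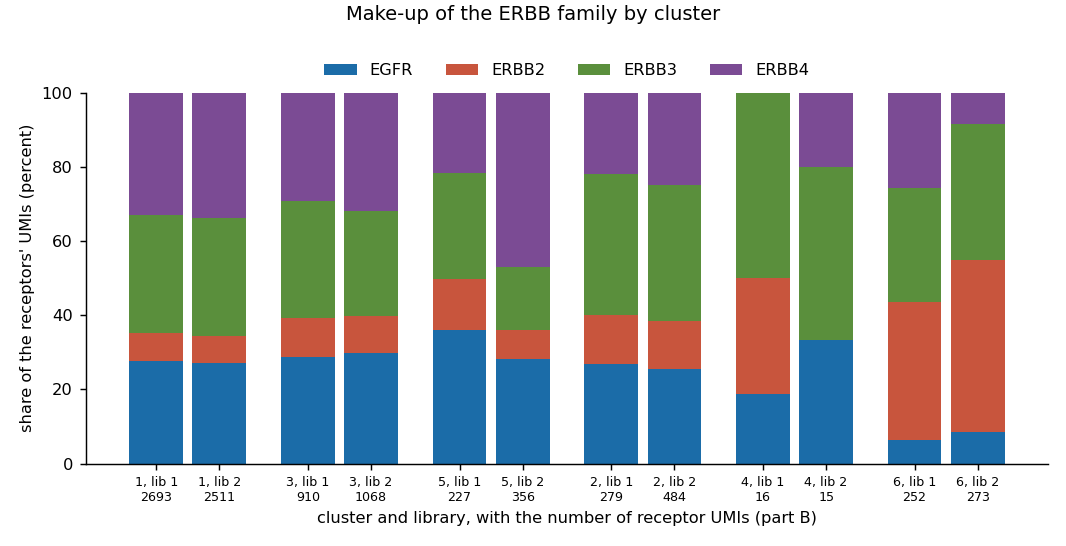
Share of the receptors' UMIs that each of the 4 genes gave, by cluster and library, with the number of receptor UMIs under each bar. In cluster 6 ERBB2 gives 37.3% and 46.5% and EGFR 6.35% and 8.42%, and the bars of cluster 4 rest on 16 and 15 UMIs.

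At a finer clustering resolution, chosen after the data had been seen, 13 of 14 fine clusters had enough cells in both libraries. ERBB2 again stood apart in the epiblast/streak-like fine cluster 9, at 60.1 and 55.2 CPM, and was between 15.4 and 24.7 CPM in every other fine cluster with at least 10 of its UMIs in each library. It was called in fine cluster 9 alone among the 13 (log2 fold change 1.56, adjusted p = 3.21e-09, edgeR, with 46.2% of genes called). In the fine clusters whose share is not given below, the share of genes called was 14.2% in fine cluster 1, 11.6% in 3, 13.9% in 4, 33.4% in 6, 32.6% in 11, 4.04% in 12 and 11.4% in 13.

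Within the trophectoderm/amnion-like cells the other receptors were called together in some fine clusters and apart in others. EGFR, ERBB3 and ERBB4 were all called higher in fine clusters 5 and 2, and EGFR and ERBB4 in fine cluster 1 (log2 fold changes 0.96 and 1.02). EGFR peaked in fine cluster 5, led by CFAP20DC-DT and CNTN5, at 94.4 and 85.2 CPM (log2 fold change 1.10, adjusted p = 4.25e-08, edgeR, with 48.6% of genes called), where ERBB3 (0.50) and ERBB4 (1.28) rose with it. By its mean, ERBB3 was highest among the deep fine clusters in fine cluster 2, where the neuronal gene STMN2 had 181 and 152 CPM. It had 105 and 92.7 CPM there (0.84, adjusted p = 4.04e-07, edgeR, with 21.6% of genes called). EGFR (0.49, adjusted p = 0.0108, edgeR) and ERBB4 (1.16) were called in fine cluster 2 too. Fine cluster 12 had ERBB3 at 71.8 and 98.4 CPM, so the ranges overlapped and library 2 had the reverse order. ERBB4 had 103 and 122 CPM in fine cluster 7, which was marked by the epithelial factor TP63 and still held POU5F1 at 97.0 and 128 CPM (1.38, adjusted p = 1.24e-04, edgeR, with 15% of genes called). EGFR was not called in fine cluster 7, at 58.2 and 43.7 CPM (0.22, adjusted p = 0.459, edgeR). In fine cluster 8, led by the mitotic genes CCNB2, PTTG1 and CDC20, ERBB4 had 22.05 and 29.5 CPM while EGFR had 67.2 and 59.1 and ERBB3 70.3 and 74.7. ERBB4 was not called there (-0.91, SE 0.51, adjusted p = 0.279, edgeR), nor were the other receptors, with 10.4% of genes called. Fine cluster 10, led by SBSPON and NPY, had EGFR called higher (0.96) and ERBB3 called lower (-0.59), with 12.8% of genes called. The same 2 calls were made in the syncytiotrophoblast-like fine cluster 11 (EGFR 0.72, ERBB3 -0.46). ERBB4 was called higher there too (0.79, adjusted p = 0.0486, edgeR), at 31.5 CPM in library 1 and 106 in library 2. In fine cluster 4 EGFR alone was called (0.58, adjusted p = 0.00276, edgeR).

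**Figure D3:**
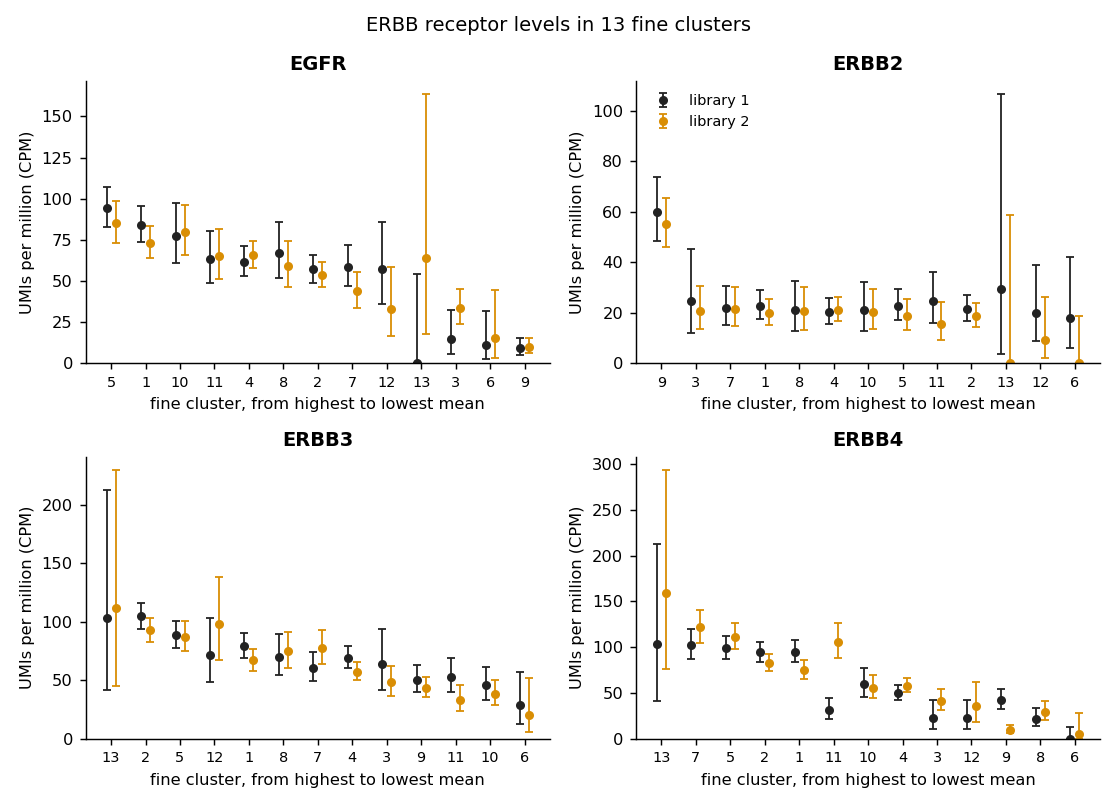
Level of each receptor (UMIs per 1000000) in 13 fine clusters, ordered for each receptor from the highest to the lowest mean, 1 point per library with its exact 95% Poisson interval. The order differs between the receptors, ERBB2 stands out in fine cluster 9 alone, and the wide intervals of fine clusters 6 and 13 reflect their few UMIs.

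The epiblast/streak-like cells were split into 4 sub-clusters to see where in them the receptors lay. These values are descriptions, since the sub-clusters hold 8 to 26 cells per library. Sub-cluster 1 had the pluripotency factor SOX2 at 229 and 222 CPM, and ERBB2 at 89.7 and 74.6 CPM. Sub-cluster 2 had SOX2 at 78.0 and 106 CPM and the streak factor TBXT at 101 and 45.6, and ERBB2 at 93.6 and 76.5. In sub-cluster 3 TBXT rose to 155 and 252 CPM and the mesoderm factor MESP1 to 305 and 191, while SOX2 had 1 UMI in library 1 and 0 in library 2. There ERBB2 had 30.5 and 17.0 CPM, on 13 and 7 UMIs, and the intervals of sub-cluster 3 lay below those of sub-cluster 1 in both libraries (16.2 to 52.2 against 64.9 to 121, and 6.82 to 35.0 against 54.6 to 99.5). ERBB3 in sub-cluster 3 was at 7.04 and 26.7 CPM, on 3 and 11 UMIs, against 45.9 and 42.2 in sub-cluster 1. In library 2 these ERBB3 intervals overlapped (13.3 to 47.7 against 27.5 to 61.8).

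Sub-cluster 4 carried the trophectoderm/amnion markers GATA3, at 90.0 and 122 CPM, and TFAP2A, at 149 and 187 CPM, beside POU5F1 at 463 and 665. ERBB2 had 36.0 and 41.1 CPM there and ERBB3 74.6 and 65.4. ERBB4 had 118 CPM in library 1, on 46 of the class's 65 UMIs, and 21.3 CPM in library 2. Counting all UMIs, 1 cell of sub-cluster 4 held 47 of the 113 ERBB4 UMIs of the class in library 1 (41.6%). That cell had 163257 UMIs, against a median of 57099 in the class. Without it, ERBB4 in the epiblast/streak-like class of library 1 was 22.5 CPM in place of 36.4. The cells of sub-cluster 4 had medians of 61848 and 120133 UMIs, the latter the highest of the sub-clusters. Scrublet, a doublet caller, marked 1 and 2 cells of the epiblast/streak-like class, all in sub-cluster 1 and none in sub-cluster 4. Without the marked cells ERBB2 in the class was 62.8 and 54.9 CPM and ERBB4 43.4 and 8.17, and in sub-cluster 1 ERBB2 was 101 and 77.1 and ERBB4 18.8 and 1.93. The caller marked few cells in all (4 and 3), so unmarked doublets may remain.

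**Figure D4:**
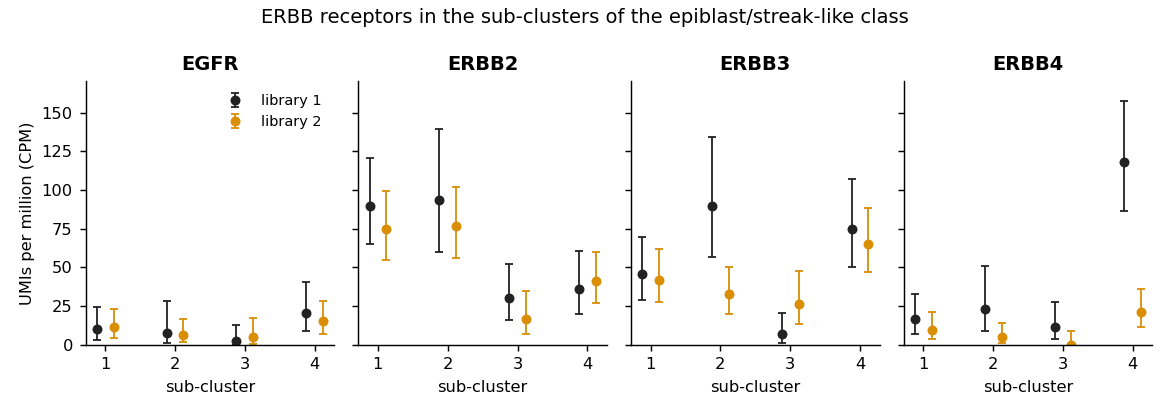
Level of each receptor (UMIs per 1000000) in the 4 sub-clusters of the epiblast/streak-like class, 1 point per library with its exact 95% Poisson interval. ERBB2 is lower in sub-cluster 3 (30.5 and 17.0 CPM) than in sub-cluster 1 (89.7 and 74.6 CPM), and ERBB4 in sub-cluster 4 differs between the libraries (118 and 21.3 CPM).

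Shares of cells with a UMI gave the same directions once depth was made equal. Each cell was thinned to 5000 UMIs, which left out 110 cells of library 1 (11.7%) and 381 of library 2 (25.1%). An EGFR UMI was then found in 180 of 651 trophectoderm/amnion-like cells in library 1 (27.6%, exact 95% Clopper-Pearson interval 24.2 to 31.3) and in 222 of 847 in library 2 (26.2%, 23.3 to 29.3). In the epiblast/streak-like class it was found in 3 of 44 (6.82%, 1.43 to 18.7) and 6 of 76 (7.89%, 2.95 to 16.4), although these cells were deeper before thinning, with medians of 59822 and 51397.5 UMIs against 40073 and 34112. The intervals of the classes did not overlap in either library.

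An ERBB2 UMI was found in 11 of 44 epiblast/streak-like cells (25.0%, 13.2 to 40.3) and 16 of 76 (21.1%, 12.5 to 31.9), against 7.68% (5.75 to 10.0) and 8.38% (6.60 to 10.5) of trophectoderm/amnion-like cells, with no overlap. The share with an ERBB3 UMI was 18.2% and 11.8% in the epiblast/streak-like class and 32.6% and 27.5% in the trophectoderm/amnion-like class. In library 1 the ERBB3 intervals of the classes overlapped. For ERBB4 the shares were 13.6% and 5.26% against 25.0% and 24.7%, and again the intervals overlapped in library 1. A low share can also come from free RNA in the droplets. The EGFR share in epiblast/streak-like cells, the ERBB4 share there in library 2 and the ERBB2 share in trophectoderm/amnion-like cells are not read as expression. Without thinning, 64.5% of all kept cells in library 1 and 49.6% in library 2 had an EGFR UMI.

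At equal depth and over all cells, pairs of receptors were found in the same cells about as often as independent detection gives. Of the thinned cells, 38.8% and 41.4% had a UMI of no receptor, 40.0% and 39.5% of 1 receptor and 16.9% and 16.8% of 2, and 2 and 3 cells had all 4. EGFR with ERBB2 was found in 20 of 827 cells (2.42%, 1.48 to 3.71) in library 1 and 23 of 1138 (2.02%, 1.29 to 3.02) in library 2, where independent detection gives 2.42% and 2.18%. ERBB2 with ERBB3 was found in 3.75% (2.56 to 5.28) and 3.16% (2.23 to 4.35), where independence gives 3.00% and 2.47%. For all 6 pairs, in both libraries, over all cells and within each class, the share that independence gives lay inside the interval. In the epiblast/streak-like class the pairs rested on 0 to 3 cells, too few to decide the question. There EGFR with ERBB2 in library 1 was at 2.67 times independence, on 2 of 44 cells (0.56 to 15.5%). Over 6 pairs, 6 clusters and 2 libraries, the 1 exception was ERBB2 with ERBB3 in cluster 3 of library 2. It was found in 11 of 212 cells (5.19%) where independence gives 2.54%. In library 1 the same pair in cluster 3 was found in 4 of 160 cells (2.50%), where independence gives 2.11%, inside the interval. At this depth a modest excess would not be detectable. Without thinning, where cells differ in depth, all 6 pairs lay above independence over all cells in both libraries, for example EGFR with ERBB2 in 35.9% and 22.8% of cells where independence gives 30.8% and 17.4%. Within the trophectoderm/amnion-like class this held for all 6 pairs in library 2 and for none in library 1.

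ERBB4 UMIs were spread over the cells less evenly than those of EGFR and ERBB3. The top 10% of cells by ERBB4 held 59.0% and 61.8% of its UMIs, against 42.9% and 47.3% for EGFR and 38.8% and 41.9% for ERBB3. In cells thinned to the same depth, the variance of ERBB4 UMIs per cell was 2.44 and 2.62 times their mean. The median of that ratio was 1.12 and 1.11 over 2039 and 2043 genes with 50 to 100 CPM, and 96.8% and 97.9% of those genes lay below ERBB4. Within cluster 1 alone the ERBB4 ratio was 2.46 and 2.95. EGFR had 1.67 and 1.22 and ERBB3 1.14 and 1.18 over all cells. ERBB2 had 1.18 and 1.14, but at 23.0 and 21.4 CPM it lay below the range of the genes compared.

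The ligands that passed the filter on low counts lay on the other side from EGFR. Of 11 ligand genes listed, 9 were in both tables and 4 were abundant enough to test. All 4 had less RNA in the trophectoderm/amnion-like class by the edgeR test, with a median log2 fold change of -2.84. Of all genes tested, 26.3% were called lower in this contrast, and 4 genes are too few to speak for the ligands as a group. NRG3, a ligand of ERBB4, had 257 and 261 CPM in the epiblast/streak-like class and 18.1 and 15.4 in the trophectoderm/amnion-like class (log2 fold change -4.37, SE 0.12, adjusted p = 5.84e-15, edgeR). The cycling cluster 3 had 36.2 and 30.9 CPM of NRG3 and cluster 1 had 11.7 and 9.46. Within the epiblast/streak-like cells NRG3 was highest in sub-cluster 2, at 374 and 441 CPM.

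TGFA, a ligand of EGFR, had 13.5 and 17.8 CPM in the epiblast/streak-like class, on 21 and 41 UMIs, and 0.52 and 0.84 CPM in the trophectoderm/amnion-like class on 8 and 14 UMIs. It was called lower (adjusted p = 6.20e-07, edgeR), and since cluster 5 had 0 TGFA UMIs in both libraries the fold is better read without it, at a log2 fold change of -4.32. TGFA lay mostly in sub-clusters 2 (54.6 and 21.2 CPM) and 3 (9.39 and 53.3 CPM), on 4 to 22 UMIs each. EGF had 19.3 and 17.4 CPM against 10.99 and 9.15 (log2 fold change -1.31, adjusted p = 3.59e-04, edgeR; -0.66 without cluster 5). NRG1, a ligand of ERBB3 and ERBB4, had 34.8 and 16.1 CPM against 18.1 and 19.3, so the classes overlapped. Its log2 fold change was -1.24 (adjusted p = 0.00258, edgeR) and lost the call without cluster 5 (-0.57, adjusted p = 0.0889, edgeR).

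In the main analysis the other ligands were too few to test: AREG, HBEGF, BTC, NRG2 and NRG4 stayed under 5 CPM in both classes and EREG had 1 UMI in the 2 classes together. AREG, a ligand of EGFR, was tested with no filter on low counts and was called higher in the trophectoderm/amnion-like class (adjusted p = 0.00373, edgeR), where it had 3.19 and 3.83 CPM against 2 UMIs in library 1 and 0 in library 2 of the epiblast/streak-like class.

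Genes that release ligands or relay the receptors' signal were split, and the counts below stand against the 50.4% of all genes called. Of 6 sheddases and their partners, which cut ligands free from the cell surface, 3 were higher in the trophectoderm/amnion-like class and 0 lower, a share called like that of all genes, with a median of 0.42. ADAM10 had 225 and 221 CPM against 132 and 130 (log2 fold change 0.80, adjusted p = 2.32e-06, edgeR), ADAM9 had a log2 fold change of 0.64 and ADAM19 of 0.63. ADAM9 was no longer called without cluster 5 (adjusted p = 0.0566, edgeR). Of 13 adaptors and effectors, 6 were higher and 3 lower, with a median of 0.053. The docking protein GAB1 had 128 and 129 CPM against 65.8 and 43.9 (1.19, adjusted p = 7.50e-07, edgeR). PIK3R3, a regulatory subunit of PI3K, had 16.4 and 15.6 CPM against 62.5 and 52.2 (-1.60, adjusted p = 1.41e-06, edgeR). The catalytic subunits of PI3K parted, with PIK3CA higher (0.64) and PIK3CB lower (-0.92), and the adaptor SHC1 was lower (-1.05). Without cluster 5 the counts were 5 higher and 4 lower, with PIK3R1 losing its call and GRB2 called lower.

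Negative regulators moved both ways, 4 higher and 5 lower of 11, with a median log2 fold change of -0.10. The ubiquitin ligase CBLB rose most, from 110 and 69.5 CPM in the epiblast/streak-like class to 1042 and 916 CPM (log2 fold change 3.43, SE 0.17, adjusted p = 7.07e-12, edgeR). ERRFI1, an inhibitor of EGFR, had 121 and 118 CPM against 52.9 and 34.8 (1.81, adjusted p = 9.40e-08, edgeR). In the opposite direction, LRIG1, which lowers ERBB receptor levels, had 10.7 and 8.73 CPM against 37.4 and 26.1 (-2.80, adjusted p = 5.04e-07, edgeR; -1.53 without cluster 5). Its relative LRIG3 was also lower (-2.02), and CBL, a close relative of CBLB, was lower by less (-0.43, adjusted p = 0.00990, edgeR). USP8 and STUB1, called higher at 0.33 and 0.32, lost their calls without cluster 5.

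Of 11 feedback and target genes of ERK, 2 rose and 6 fell from the epiblast/streak-like to the trophectoderm/amnion-like class, with a median log2 fold change of -0.86. The transcription factor ETV4 had 3.64 and 3.35 CPM against 39.3 and 47.8 (-3.60, adjusted p = 3.50e-10, edgeR). The ERK phosphatase DUSP6 had 7.28 and 8.02 CPM against 32.2 and 54.8 (-2.12, adjusted p = 8.91e-08, edgeR), and the inhibitor SPRY4 had 4.23 and 4.91 against 35.5 and 46.5 (-2.71). FOSL1, ETV5 and SPRED1 were lower too. EGR1 (0.91, adjusted p = 0.0319, edgeR) and PHLDA1 (0.60, adjusted p = 0.00139, edgeR) were higher, and SPRY2, DUSP4 and SPRED2 were not called. Without cluster 5 the call of EGR1 was lost (0.59, adjusted p = 0.162, edgeR) while SPRY2 (0.64, adjusted p = 0.00151, edgeR) and SPRED2 (0.32, adjusted p = 0.0491, edgeR) were called higher. These genes respond to other receptors as well, such as those for FGF. Of the 4 AP-2 factors tested, which are known to act on ERBB2 and EGFR promoters, TFAP2A (1.30) and TFAP2B (2.69) were called higher in the trophectoderm/amnion-like class and TFAP2C was not (45.8 and 36.4 CPM against 43.8 and 41.3).

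**Figure D5:**
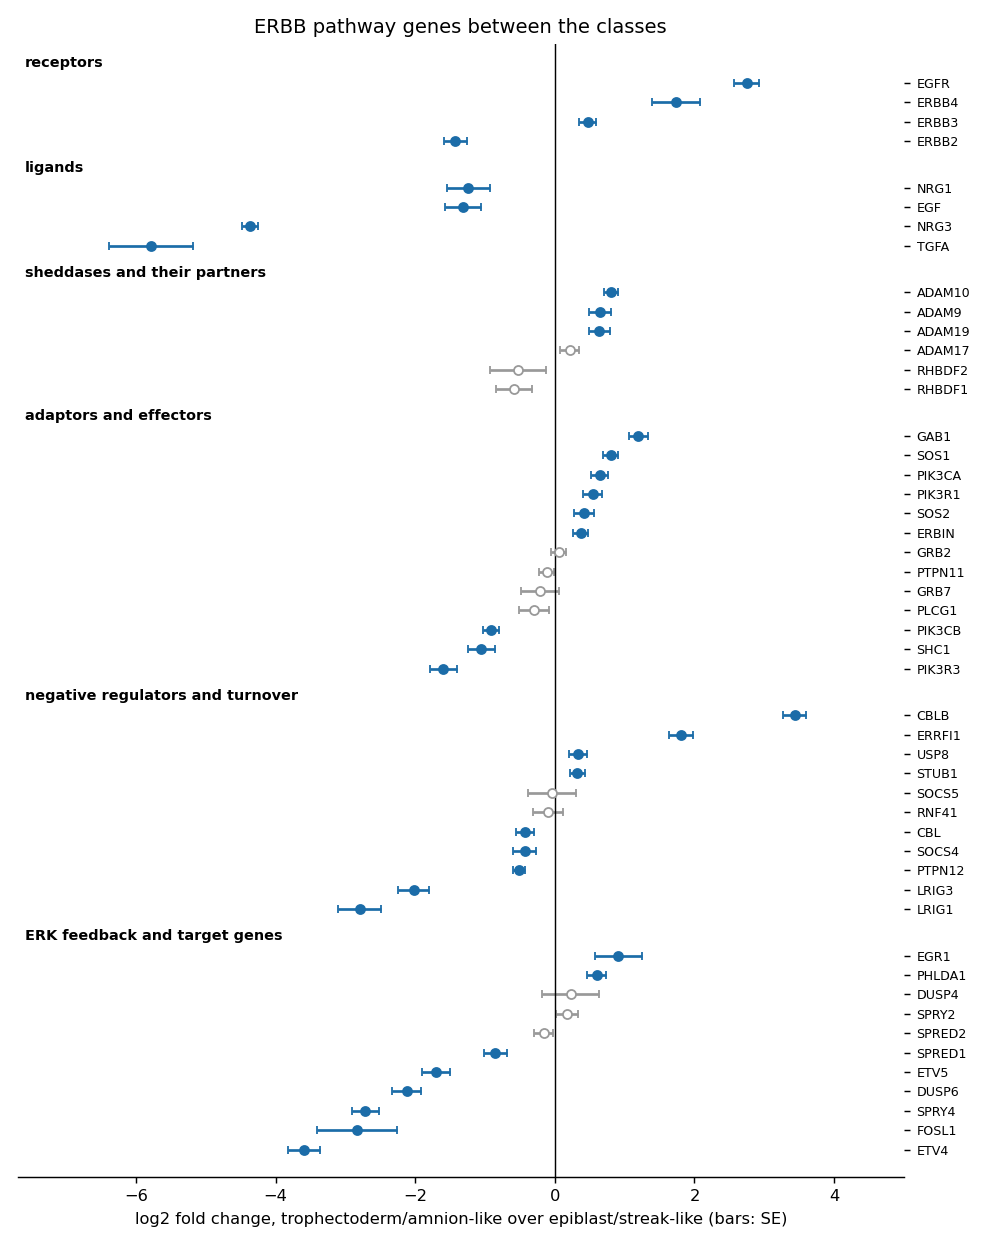
Log2 fold changes with SE of the trophectoderm/amnion-like over the epiblast/streak-like class for the receptors and the pathway genes tested, with genes called at an adjusted p under 0.05 filled and the others open. EGFR, ERBB4 and ERBB3 lie to the right and ERBB2 to the left, and the ligands NRG1, EGF, NRG3 and TGFA all lie to the left.

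Genes with the most similar profile over the 6 clusters were different for each receptor. They are given as a description of 6 points per library, among 11012 genes, and the points share their libraries. For EGFR they were LINC01924 (Pearson r of 0.995 in library 1 and 0.996 in library 2), COL12A1 and THRB. For ERBB2 they were BMPER (0.948 and 0.981), THUMPD2 and PWWP3A. For ERBB3 they were KIDINS220 (0.974 and 0.981), APLP2 and CASC9, and for ERBB4 RASGRF2 (0.9904 and 0.9903), TVP23C and MROH1.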

How the data were processed

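Single-cell RNA was measured in 2 libraries of 1 group with droplet 3′ chemistry, per the labels' protocols. The authors deposited raw UMI counts per gene and barcode; Cell Ranger 9.0.0 and GRCh38 are named in the submitters' processing notes. Library totals were 38665475 and 45208758 UMIs. Of their barcodes, 980 and 1013 had under 1000 genes and 71 and 69 over 20% mitochondrial UMIs. Scrublet marked 4 and 3 of the kept barcodes, which were left in.

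The UMIs of each cell were divided at random into parts A and B. Part A, normalised to 10000 per cell and log-transformed, was reduced to 2000 variable genes without the pathway, mitochondrial and ribosomal protein genes, and clustered (scanpy 1.11.5, igraph 0.11.9: 30 principal components, 15 neighbours, Leiden resolution 0.5, libraries not batch-corrected). Names come from marker lists. Clusters stayed unnamed where their median depth was under 1/3 of their libraries' with no marker of the name among the 10 leading genes. Sub-clusters come from the same step run on cluster 6 alone.

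Part B was summed per cluster and library and tested with edgeR 4.0.16 in R 4.3.3 (quasi-likelihood, TMM, filterByExpr) on 12 sums of 6 clusters, with the library as a block, 5 residual degrees of freedom and a threshold of 0.05. A class fold is the mean log2 level of its clusters, equally weighted, minus that of cluster 6; its SE is the fold divided by the square root of F. The step was tested on simulated data. Levels are part B UMIs per 1000000 with exact Poisson intervals at 95%, and shares have exact Clopper-Pearson intervals. Genes named are the receptors, members of the pathway lists, and the 3 genes most like each receptor by the lower of the libraries' correlations of log2(CPM + 1), among genes at 10 CPM in some cluster; cluster-leading genes only say what a cluster is. Marker genes named come from the marker lists, except STMN2, which was chosen after its values were seen. The members and lists were chosen with earlier results of these data known. Alternatives were DESeq2 1.42.0, its size factors, no filter, no block, other splits, resolutions, depths and sets of cells.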

Additional observations from a re-analysis of the deposited data

How the results depend on the processing

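The class folds kept their direction under all 13 alternatives, 11 of them tested. Over the 11 tested alternatives, EGFR ranged from 2.15 to 2.94, ERBB2 from -1.47 to -1.32, ERBB3 from 0.45 to 0.70 (adjusted p up to 0.0111) and ERBB4 from 1.25 to 1.91. The only call lost among them was that of ERBB4 under DESeq2's Wald test (1.52, adjusted p = 0.0589), and the cause was not tested. With 1 library left out, with no test, EGFR was 2.73 to 2.77, ERBB2 -1.50 to -1.34, ERBB3 0.43 to 0.51 and ERBB4 0.60 to 3.11. With no replicate block they were 2.75, -1.42, 0.48 and 1.73, and the block changed no receptor's class call, while ERBB3 in clusters 2 and 4 was called only with it (adjusted p = 0.0578 and 0.0580 without, edgeR). Genes called numbered 6883, and 6085 to 8455 under the alternatives; with no filter the median of all genes moved to 0.118. List counts cannot be tested with 1 library. The ligands gained 1 higher member with no filter, with the unnamed clusters left out or with all UMIs. The sheddases gained 1 lower member with the unnamed clusters left out, with all UMIs, with marked doublets removed or at resolution 1.0. Of the negative regulators, 2 were higher at resolution 1.0 or without cluster 5, and 3 lower with all UMIs. Of the ERK genes 1 was higher under DESeq2's Wald test, with no replicate block or with another split. The cause of these moves was not tested.

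Of 240 alternative values of the 24 cluster contrasts, 13 changed sign, none of them a called value in the main analysis, 15 lost a call and 12 gained one. The lost calls were ERBB3 in cluster 2 (6 settings, adjusted p up to 0.256) and cluster 4 (3), EGFR in cluster 4 (3), and ERBB4 in clusters 3 (1) and 5 (2); those gained were ERBB4 in clusters 4 (5) and 6 (1), ERBB3 in clusters 3 (4) and 6 (1) and EGFR in cluster 2 (1). With 1 library left out ERBB2 ranged from -0.39 to 1.43 in cluster 1, -0.15 to 1.84 in cluster 2, -0.34 to 1.65 in cluster 3 and -0.066 to 1.28 in cluster 5, the high values coming from library 2, where cluster 4 has 0 ERBB2 UMIs. ERBB4 in cluster 6 ranged from -2.41 to 1.63, the high value coming from library 1, where cluster 4 has 0 ERBB4 UMIs. The other changes for ERBB2 were -0.034 with all UMIs and -0.032 with another split in cluster 2, 0.023 with no filter and 0.074 with marked doublets removed in cluster 3, and 0.029 with the latter in cluster 5. ERBB4 was -0.45 in cluster 2 with marked doublets removed. ERBB3 was 0.049 in cluster 5 and 0.046 in cluster 6 with cells of 5000 UMIs or more. Where no reason is given, the cause was not tested.

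Levels without 1 library were 58.1 to 64.1 CPM for EGFR, 23.2 to 24.9 for ERBB2, 64.9 to 76.9 for ERBB3 and 67.8 to 72.1 for ERBB4; as a mean of each cell's CPM, ERBB2 was 21.3 and ERBB4 81.1. Mean shares of cells without 1 library were 22.9 to 24.4% for EGFR, 9.49 to 9.92% for ERBB2, 26.0 to 30.2% for ERBB3 and 21.8 to 22.2% for ERBB4. They follow depth: thinned to 2000 or 10000 UMIs, or not thinned, they were 10.7, 38.9 and 57.0% for EGFR, 3.75, 19.1 and 41.4% for ERBB2, 12.4, 47.6 and 65.8% for ERBB3, and 12.1, 31.6 and 45.3% for ERBB4. Another thinning seed gave 10.9% for ERBB2 and 23.0% for ERBB4. The ratio of joint to independent detection rests on few cells. Without 1 library it was 0.929 to 0.999 for EGFR with ERBB2, 1.03 to 1.048 for EGFR with ERBB3, 1.09 to 1.14 for EGFR with ERBB4, 1.25 to 1.28 for ERBB2 with ERBB3, 0.722 to 0.987 for ERBB2 with ERBB4 and 1.04 to 1.24 for ERBB3 with ERBB4. Thinned to 2000 UMIs, the first 5 of these pairs were at 1.12, 0.886, 1.38, 0.665 and 1.36. Another seed gave 1.09 for EGFR with ERBB3, 1.18 for EGFR with ERBB4, 1.16 for ERBB2 with ERBB3 and 1.20 for ERBB2 with ERBB4, and 10000 UMIs gave 0.973 for ERBB2 with ERBB3.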
